A study of Mus musculus with 222 samples.

Results

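The 6 genes described here, Dazl, Ddx4, Dnd1, Nanos1, Nanos2 and Nanos3, encode RNA-binding proteins that act in germ cells. They were taken by symbol from the 24391 gene symbols of the count tables, and each was found in all of the tables. The tables hold RNA from mouse primordial germ cells (PGCs), the embryonic precursors of eggs and sperm, with and without the Polycomb gene Eed. All embryos came from crosses of OG;Eed fl/fl females, which carry an Oct4-GFP reporter, with BC;Eed fl/+ males, which carry a Blimp1-Cre transgene, on a C57BL/6;129S1/SvlmJ background. ECKO germ cells are those of embryos labelled as conditional knockouts, in which Blimp1-Cre, active in PGCs from their specification, deletes Eed. Control germ cells are labelled wild type, although the cross gives every embryo at least 1 floxed allele. GFP-positive gonadal cells were sorted, either in bulk or as single cells. The bulk groups were E11.5 XX (4 ECKO and 3 Control libraries), E11.5 XY (4 ECKO and 4 Control) and E13.5 XY (3 ECKO and 4 Control). The single cells were from E12.5, with 2 ECKO and 2 Control embryos of each sex and 24 cells from each embryo. How many embryos went into a bulk library is not given in the sources used here. In bulk RNA, fewer cells of a kind and less RNA per cell cannot be told apart.

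Germ cells control much of their fate after transcription, through proteins that bind the 3′ ends of mRNAs. DAZL binds mRNAs and favours their translation, and in mice it is needed for germ cells to become competent for sexual differentiation once they have reached the gonad. DDX4, the mouse vasa homologue, is an RNA helicase of germ granules and of the piRNA pathway. DND1 binds mRNAs together with NANOS proteins and is needed for PGC survival, and mice without it are prone to testicular teratomas. NANOS proteins bring the CCR4-NOT deadenylase, often with a Pumilio protein, to their targets: NANOS3 protects migrating PGCs from death, NANOS2 marks and promotes the male fate after sex determination, and mouse NANOS1 is mainly known from the nervous system. EED belongs to the Polycomb complex PRC2, a histone H3 lysine 27 methyltransferase often found at CpG-rich promoters.

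The promoters of the members differ in CpG content, the sequence feature that PRC2 and DNA methylation both relate to, so those of 4 members that changed between stages in Control cells are shown. Each is the 250 bases before the annotated start site, credited to RefSeq on build GRCm38.p6, 5′ to 3′ on the gene's strand, with CpG dinucleotides in capitals. Dazl lies on the minus strand at chr17:50293621-50293870, Ddx4 on the minus strand at chr13:112652311-112652560, Nanos2 on the plus strand at chr7:18987274-18987523 and Nanos3 on the minus strand at chr8:84176553-84176802.
Dazl: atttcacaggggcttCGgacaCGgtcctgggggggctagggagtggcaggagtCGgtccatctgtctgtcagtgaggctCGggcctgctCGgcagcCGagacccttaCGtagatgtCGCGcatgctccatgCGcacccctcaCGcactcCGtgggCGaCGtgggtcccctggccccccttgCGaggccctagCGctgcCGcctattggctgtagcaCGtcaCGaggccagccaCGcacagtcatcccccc
Ddx4: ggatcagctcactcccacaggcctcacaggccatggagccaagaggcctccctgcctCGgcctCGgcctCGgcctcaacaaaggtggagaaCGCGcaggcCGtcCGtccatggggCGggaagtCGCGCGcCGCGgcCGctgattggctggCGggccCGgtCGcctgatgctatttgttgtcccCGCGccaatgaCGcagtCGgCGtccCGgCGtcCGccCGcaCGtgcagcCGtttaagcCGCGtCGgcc
Nanos2: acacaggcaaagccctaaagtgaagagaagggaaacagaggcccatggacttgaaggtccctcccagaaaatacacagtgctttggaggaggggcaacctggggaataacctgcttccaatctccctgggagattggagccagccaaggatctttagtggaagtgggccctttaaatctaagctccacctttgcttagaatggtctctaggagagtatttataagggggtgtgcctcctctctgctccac
Nanos3: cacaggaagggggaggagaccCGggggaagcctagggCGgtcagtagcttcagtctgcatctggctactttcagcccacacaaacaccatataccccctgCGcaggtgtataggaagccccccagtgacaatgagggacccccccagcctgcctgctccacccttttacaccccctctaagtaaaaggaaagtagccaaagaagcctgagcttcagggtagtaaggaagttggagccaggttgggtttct
The Ddx4 window holds 31 CpG dinucleotides, the Nanos1 window 25, the Dazl window 20, the Nanos3 window 3 and the Nanos2 window 0. Over 32851 such windows of mouse genes, the median was 6, with quartiles of 2 and 16. Of all windows, 94.8% held fewer CpG than Ddx4, 89.3% fewer than Nanos1 and 82.1% fewer than Dazl, against 29.0% for Nanos3. The letters CACGTG, an E-box, and GCGGGA, a core of E2F sites, searched on both strands, were found in the Ddx4 window alone among the 5 members with a window, against 6.02% and 16.9% of all windows. A match of letters is a description and not evidence of binding.

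**Figure D1:**
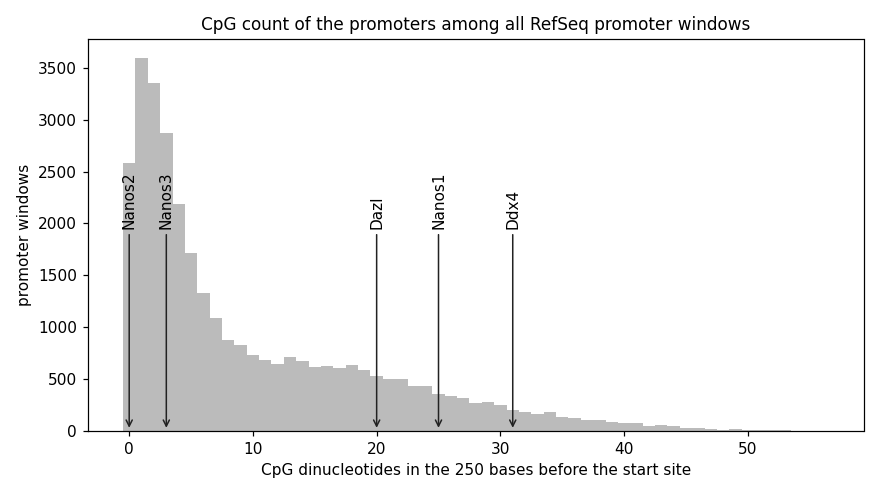
Number of promoter windows (vertical axis) by the number of CpG dinucleotides in the 250 bases before the start site (horizontal axis), with arrows at 5 of the members. Nanos2 (0) and Nanos3 (3) sit among the CpG-poor windows, and Dazl (20), Nanos1 (25) and Ddx4 (31) above the upper quartile of 16.

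Sequencing depth was 1323850 to 7559310 counts in E11.5 XX ECKO and 415291 to 3088644 in E11.5 XX Control libraries, the shallowest groups, and 4903492 to 14974853 in the XY bulk libraries. Of 192 single cells, 127 had at least 50000 counts and 1500 genes and were kept, 13 to 22 per embryo. Eed, the deleted gene, separated ECKO from Control libraries and embryos in each sex and stage without overlap, with mean levels of 21.3 and 78.8 CPM (counts scaled to library size) in ECKO and Control at E11.5 XX, 32.8 and 102 CPM at E11.5 XY, and 9.85 and 97.5 CPM at E13.5 XY. At least 11 of 12 germ cell markers were detected in every library and embryo, but their summed level at E13.5 was lower in ECKO (1108 to 2158 CPM) than in Control libraries (2857 to 3892 CPM). Some libraries stood apart. E11.5 XX ECKO 4 had an interstitial cell marker sum of 1168 CPM, against 32.6 to 150 CPM in the other ECKO and 15.2 to 102 CPM in the Control libraries. E13.5 ECKO 1 differed from ECKO 2 and ECKO 3 by a chi-square per degree of freedom of 185 and 204, against 57.4 between those 2. E13.5 Control 3 differed from the other Controls by 85.6 to 131, against 25.5 to 37.9 among them. Its supporting cell marker sum was 215 CPM, against 9.98 to 60.8 CPM. That sum came from few genes, since 9 of the 14 markers were at 0, against 5, 6 and 4 in Controls 1, 2 and 4. E11.5 XY ECKO 4 had an interstitial sum of 426 CPM, against 17.9 to 63.9 CPM in the other ECKO and 11.4 to 85.3 CPM in the Control libraries.

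A gene was called changed at an adjusted p under 0.05 in edgeR's quasi-likelihood test with Benjamini-Hochberg adjustment over all genes tested. By this rule, 0 of 5 tested members changed between ECKO and Control germ cells in E11.5 XX, where 0.172% of all tested genes were called, and 0 of 5 in E11.5 XY, where 2.13% were called. In E13.5 XY, 1 of 6 changed, Nanos2, where 4.90% of all genes were called. In the E12.5 embryos, 0 of 5 tested members changed in XX (0.0215% of all genes) and 0 of 5 in XY (0.00717%). No member had an unadjusted p under 0.05 in either E11.5 comparison, and Dnd1 in XX and Nanos3 in XY had one at E12.5. DESeq2 likewise called no member at E11.5, and at E12.5 called Dnd1 in XX, where it called 6.52% of all genes. Nanos2 passed the filter on low counts at E13.5 alone. All other differences between genotypes given below did not pass this test unless a call is stated. Where groups are said to separate or not to overlap, the share of all genes that do so was not counted.

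**Figure D2:**
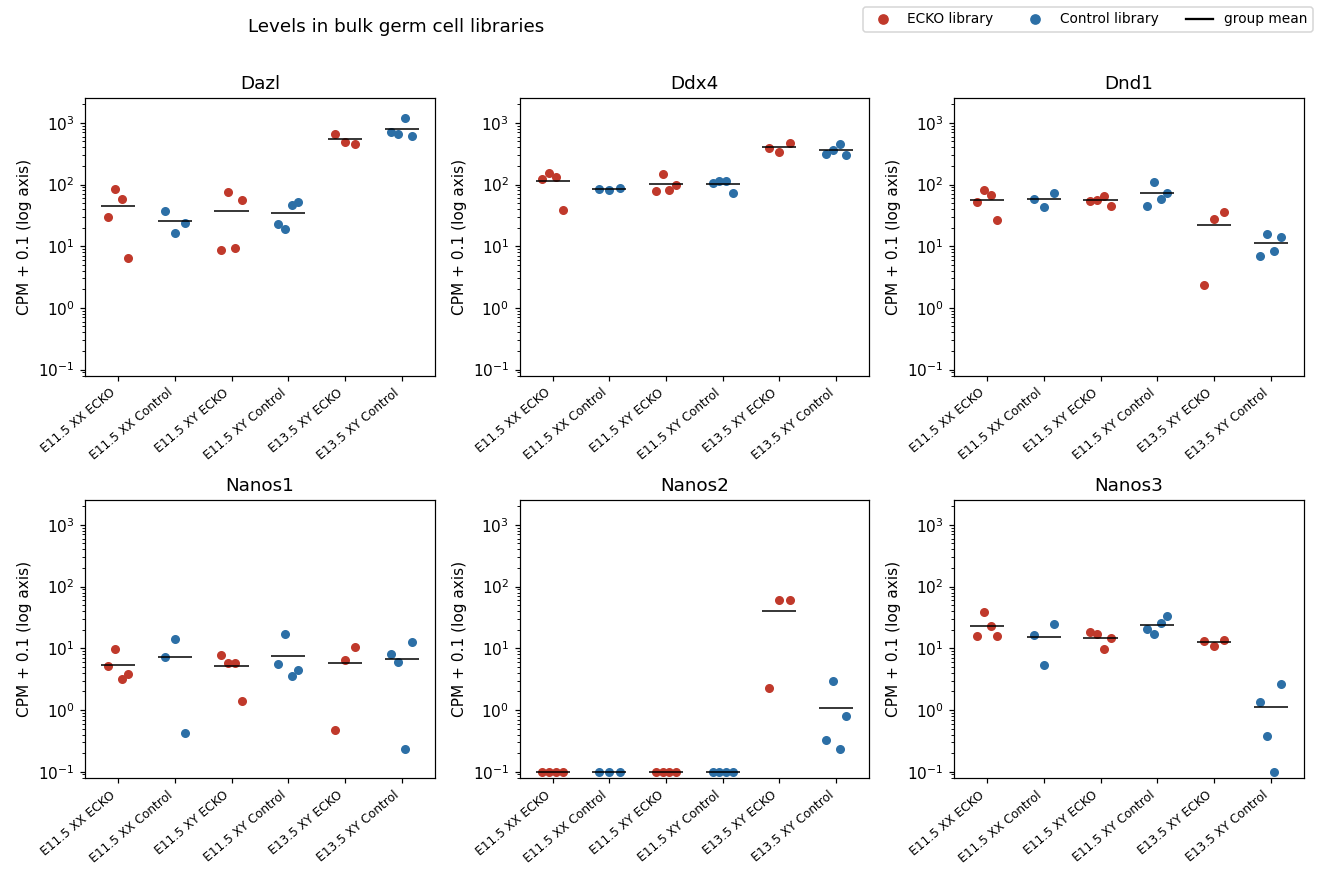
Level of each member in each bulk library (CPM + 0.1, log axis) by sex, stage and genotype, ECKO in red and Control in blue, with a line at the group mean. Dazl and Ddx4 are higher in both E13.5 groups than in the E11.5 groups, Nanos2 is at 0 in all E11.5 libraries, and Nanos3 at E13.5 is between 10.8 and 13.4 CPM in ECKO and at most 2.52 CPM in Control libraries.

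Dazl, the translational activator, was low and uneven at E11.5 and abundant at E13.5. In E11.5 XX it stood at 29.9, 85.4, 57.4 and 6.26 CPM in ECKO libraries, and at 37.6, 16.2 and 23.99 CPM in Control libraries. The ECKO libraries 2 and 3 lay above all Controls and ECKO 4 below them, so the groups overlapped. In E11.5 XY it stood at 8.70, 74.8, 9.34 and 56.1 CPM in ECKO libraries, and at 22.98, 19.06, 45.8 and 51.5 CPM in Control libraries. Here the ECKO libraries fell into a pair below and a pair above the Control range. The log2 fold change between genotypes came with a large error, 0.83 (SE 0.67) in XX and 0.12 (SE 0.56) in XY. The XX value was 1.21 without ECKO 4, 0.57 without Control 2 and 0.31 without ECKO 2. The XY value was -0.14 without ECKO 4, and it was negative in 4 of the 8 fits that left out 1 library. The difference between the sexes in this effect was 0.76 (SE 0.95, adjusted p = 0.961 in edgeR's quasi-likelihood test), in a comparison in which edgeR called 0 of 14185 genes, 0% (747 at an unadjusted p under 0.05, and 1 called by DESeq2).

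At E13.5 Dazl reached 667, 493 and 460 CPM in ECKO libraries, and 704, 659, 1210 and 604 CPM in Control libraries. The groups overlapped, with ECKO 1 inside the Control range and ECKO 2 and ECKO 3 below it. The log2 fold change was -0.55 (SE 0.34, adjusted p = 0.363 in edgeR's quasi-likelihood test), -0.81 without ECKO 1 and -0.21 without Control 3, the highest library. In order of mean level, E13.5 Control (794 ± 280 CPM, SD, n = 4) and E13.5 ECKO (540 ± 111, n = 3) overlapped each other and lay above every E11.5 library. The E11.5 groups, between 25.9 ± 10.8 CPM in XX Control (n = 3) and 44.7 ± 34.2 CPM in XX ECKO (n = 4), overlapped throughout.

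Ddx4, the germ granule helicase, followed the same course with less spread. In E11.5 XX it stood at 122, 154, 134 and 39.1 CPM in ECKO libraries, and at 84.5, 80.1 and 86.4 CPM in Control libraries. ECKO 4, the library with the high interstitial sum, was the lowest of the 7 and the other ECKO libraries were above all Controls. The fold change was 0.42 (log2, SE 0.37), 0.70 without ECKO 4 (adjusted p = 0.238 in edgeR's quasi-likelihood test) and 0.23 without ECKO 2. The part of interstitial cells in this value was not tested. In E11.5 XY it stood at 78.3, 147, 81.6 and 97.5 CPM in ECKO libraries, and at 105, 115, 113 and 74.1 CPM in Control libraries, overlapping ranges with a log2 fold change of 0.02 (SE 0.22). At E13.5 it stood at 393, 340 and 468 CPM in ECKO libraries, and at 315, 362, 460 and 297.9 CPM in Control libraries. The ranges overlapped again, with a log2 fold change of 0.15 (SE 0.29), and 0.37 without Control 3. The means at E13.5 (401 ± 64.2 CPM in ECKO, n = 3, and 359 ± 72.9 CPM in Control, n = 4, SD) were the 2 highest and overlapped, and the 4 E11.5 means lay between 83.7 and 112 CPM.

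Dnd1, the partner of NANOS proteins in mRNA binding, was at similar levels in all E11.5 groups and lower at E13.5. In E11.5 XX it stood at 52.5, 81.1, 67.6 and 26.9 CPM in ECKO libraries, and at 58.7, 43.3 and 71.6 CPM in Control libraries. In E11.5 XY it stood at 54.7, 56.6, 64.6 and 45.1 CPM in ECKO libraries, and at 45.3, 111, 57.6 and 72.3 CPM in Control libraries. Both pairs of groups overlapped, with log2 fold changes of -0.04 (SE 0.37) in XX and -0.35 (SE 0.25) in XY. At E13.5 it stood at 2.29, 27.3 and 35.9 CPM in ECKO libraries, and at 6.73, 15.5, 8.14 and 14.2 CPM in Control libraries. ECKO 1 was below all Controls and the other 2 above them, giving a log2 fold change of 0.94 (SE 0.82), 1.43 without ECKO 1 (adjusted p = 0.139 in edgeR's quasi-likelihood test) and 0.39 without ECKO 3. Dnd1 overlaps the gene Wdr55 in the RefSeq annotation of GRCm38.p6, and the strand setting of the counting is not given in the sources used here, so Dnd1 counts are uncertain. Wdr55 had log2 fold changes of its own of -1.31 (SE 0.41) at E13.5, -0.43 (SE 0.29) in E11.5 XX and 0.27 (SE 0.19) in E11.5 XY.

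Nanos3, which protects PGCs from death, did not overlap between the genotypes at E13.5 but was not called. In edgeR's quasi-likelihood test 2795 of 12336 genes had an unadjusted p under 0.05 here. The share of all genes without overlap was not counted. Nanos3 stood at 12.98, 10.8 and 13.4 CPM in ECKO libraries, and at 1.23, 0.28, 0 and 2.52 CPM in Control libraries, from 341 counts over the 3 ECKO and 25 counts over the 4 Control libraries. Every ECKO library was above every Control, and ECKO 1, apart for other members, was not apart here. The log2 fold change of 3.63 (SE 1.26) did not pass edgeR's quasi-likelihood test (adjusted p = 0.114). It passed in DESeq2 (adjusted p = 0.0116), which called 13.8% of all genes. It also passed in a joint edgeR fit of all 22 bulk libraries (adjusted p = 0.00134), which called 19.8% of all genes. Without ECKO 1 it was 3.53. At E11.5 the groups overlapped. In XX it stood at 15.4, 38.0, 23.2 and 15.6 CPM in ECKO libraries, and at 16.4, 5.17 and 24.3 CPM in Control libraries (log2 fold change 0.56, SE 0.59). In XY it stood at 18.2, 16.7, 9.81 and 14.3 CPM in ECKO libraries, and at 20.2, 17.003, 25.5 and 33.1 CPM in Control libraries (log2 fold change -0.68, SE 0.35). Of the 6 bulk groups, E13.5 XY Control (1.01 ± 1.14 CPM, SD, n = 4) was thus the lowest, with each of its libraries below all others, and the remaining group means lay between 12.4 CPM in E13.5 ECKO and 23.9 CPM in E11.5 XY Control.

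Nanos2, the male fate gene, had no count in any of the 15 E11.5 libraries. A count of 3 over a whole group would be 0.193 CPM in XX ECKO, 0.598 CPM in XX Control, 0.0667 CPM in XY ECKO and 0.0577 CPM in XY Control. At E13.5 it stood at 2.16, 59.5 and 60.3 CPM in ECKO libraries (17, 529 and 644 counts), and at 0.22, 2.84, 0.14 and 0.69 CPM in Control libraries (2, 31, 1 and 3 counts). ECKO 2 and ECKO 3 were far above all Controls, and ECKO 1 lay within the Control range, below Control 2. Nanos2 rose in ECKO by 5.30 on the log2 scale (SE 1.20, adjusted p = 0.0296 in edgeR's quasi-likelihood test, and 1.5e-05 in DESeq2). The call was lost in several fits that left out 1 library: the adjusted p in edgeR's quasi-likelihood test was 0.0796 without Control 1, 0.0967 without Control 4, 0.110 without ECKO 2 and 0.111 without ECKO 3. Over all genes, the number called also fell in these fits, from 604 to 162, 94, 99 and 108. Without ECKO 1 the fold change was 5.80 (log2) and the adjusted p 0.00514. The fold changes in these fits stayed between 4.91 and 6.94.

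Nanos1, a NANOS gene best known from neurons, was scarce in every group. It ranged from 3.07 to 9.49 CPM in E11.5 XX ECKO and from 0.33 to 14.2 CPM in E11.5 XX Control libraries. In E11.5 XY it ranged from 1.28 to 7.79 CPM in ECKO and from 3.39 to 16.7 CPM in Control libraries. At E13.5 it ranged from 0.38 to 10.4 CPM in ECKO and from 0.14 to 12.6 CPM in Control libraries. All ranges overlapped, all 6 group means lay between 5.12 and 7.49 CPM, and the log2 fold changes were -0.43 (SE 1.01), -0.52 (SE 0.71) and -0.27 (SE 1.29).

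**Figure D3:**
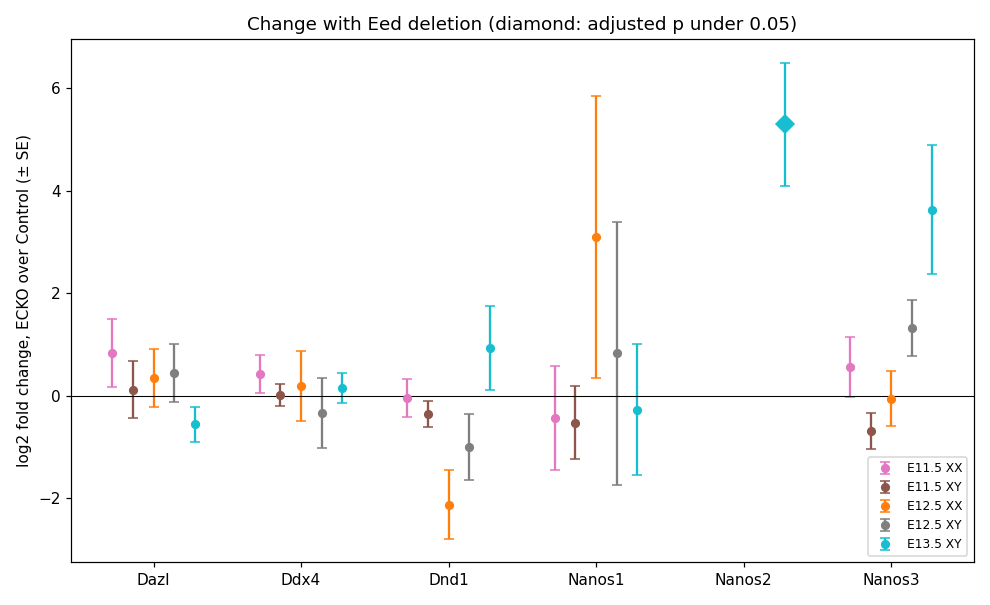
Log2 fold change of each member, ECKO over Control, with its standard error, in the 3 bulk and 2 single-cell comparisons. Diamonds mark an adjusted p under 0.05, which Nanos2 at E13.5 alone had (5.30), and bars of Nanos1 are wide in every comparison.

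Between E11.5 and E13.5 the members changed in different directions in XY germ cells. These stages are in separate deposited tables, so stage and any difference between the tables cannot be told apart. In ECKO cells 3 of 6 members changed, Dazl, Ddx4 and Nanos2, where 23.7% of all genes were called, and in Control cells 5 of 6, all but Nanos1, where 31.5% were called. Dazl rose by a log2 fold change of 3.76 (SE 0.57) in ECKO and 4.41 (SE 0.57) in Control cells. Ddx4 rose by 1.89 (SE 0.26) on the log2 scale in ECKO and 1.72 (SE 0.24) in Control cells. For both genes every E13.5 library lay above every E11.5 library, and the adjusted p in edgeR's quasi-likelihood test was at most 9.4e-05. Nanos2, at 0 before, was at least 649.9-fold higher at E13.5 than the floor of 3 counts over the group in ECKO cells (pooled level 43.4 CPM, adjusted p = 0.000346 in edgeR's quasi-likelihood test) and at least 20.3-fold higher in Control cells (1.17 CPM, adjusted p = 0.00901). Of the 37 Control counts, 31 came from Control 2, and without it the Control limit was 5.03-fold (6 counts, 0.29 CPM), a value computed after the counts were seen. Leaving out 1 ECKO library, the ECKO limit lay between 488-fold and 898-fold.

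Dnd1 and Nanos3 fell in Control cells and did not pass the test in ECKO cells. For Dnd1 the log2 fold change was -1.43 (SE 0.58; adjusted p = 0.0773 in edgeR's quasi-likelihood test) in ECKO and -2.78 (SE 0.55, adjusted p = 0.000662) in Control cells. Wdr55, which shares its locus, had values of -0.38 (SE 0.30) in ECKO and 1.20 (SE 0.28) in Control cells. For Nanos3 it was -0.35 (SE 0.74, adjusted p = 0.773) in ECKO and -4.75 (SE 0.82, adjusted p = 0.000182) in Control cells, in edgeR's quasi-likelihood test. The test of the difference itself, the Eed effect at E13.5 minus that at E11.5, called Nanos3 alone of the members, with a value of 4.40 (SE 1.06, adjusted p = 0.0459 in edgeR's quasi-likelihood test), where 1.20% of all genes were called. That call was lost in 12 of the 15 fits that left out 1 library (adjusted p between 0.0122 and 0.1004), while the difference stayed between 3.99 and 5.29. DESeq2 gave an adjusted p of 7.0e-05, in a comparison where it called 5.75% of all genes. For Dnd1 the difference was 1.35 (SE 0.76, adjusted p = 0.365), and 1.88 with an adjusted p of 0.0271 in edgeR's quasi-likelihood test without E13.5 ECKO 1. For Dazl it was -0.65 (SE 0.74) and for Ddx4 0.16 (SE 0.35). For Nanos2 no such difference can be estimated, because both E11.5 groups are at 0.

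**Figure D4:**
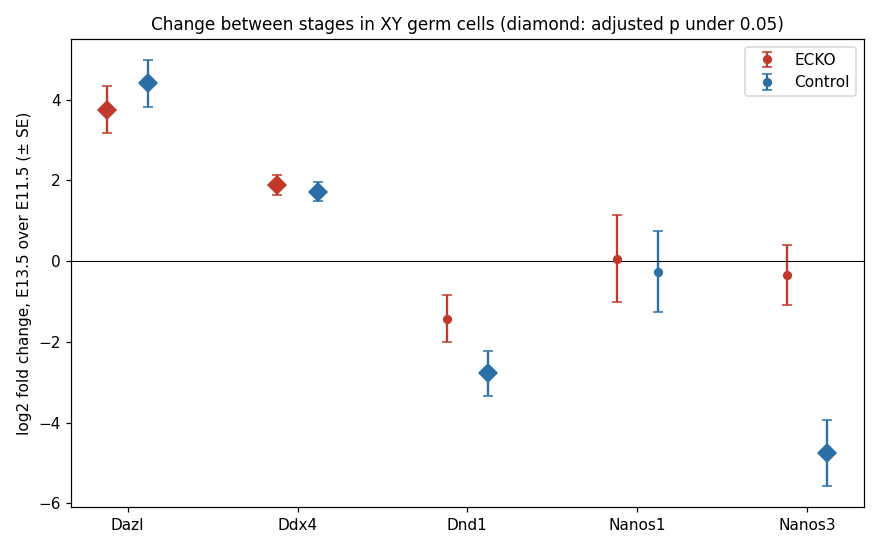
Log2 fold change between E13.5 and E11.5 XY germ cells, with its standard error, for 5 members in ECKO (red) and Control (blue) cells. Diamonds mark an adjusted p under 0.05, and the genotypes lie farthest apart for Nanos3, at -0.35 in ECKO and -4.75 in Control cells.

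Between XX and XY Control cells at E11.5 none of the 5 tested members changed, where 0.296% of all genes were called. The log2 fold changes, XX over XY, were -0.50 (SE 0.72) for Dazl, -0.27 (SE 0.33) for Ddx4, -0.29 (SE 0.34) for Dnd1, -0.07 (SE 0.93) for Nanos1 and -0.63 (SE 0.50) for Nanos3. Sex and deposited table coincide here too.

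The single cells came from E12.5, between these stages, and from another library method (Smart-seq2), whose levels are not set beside the bulk ones. Counts were summed per embryo, with 2 embryos a group. Dnd1 was the member with the clearest separation. In XX it stood at 495 (embryo E277.3) and 102 CPM (E298.4) in ECKO embryos, and at 1266 (E277.5) and 1336 CPM (E301.1) in Control embryos. In XY it stood at 410 (E281.3) and 729 CPM (E296.1) in ECKO embryos, and at 1175 (E279.1) and 1103 CPM (E280.1) in Control embryos. All ECKO embryos were below all Controls in both sexes. With 2 embryos a group, such an order, here and below, can arise readily without any effect. The log2 fold changes were -2.12 (SE 0.67, adjusted p = 0.258 in edgeR's quasi-likelihood test) in XX and -1.0005 (SE 0.64, adjusted p = 0.783) in XY. The XX value passed in DESeq2 (adjusted p = 0.0139), which called 6.52% of all genes. It also passed in edgeR's quasi-likelihood test with no filter on low counts (adjusted p = 0.00989), where 3.41% of all genes were called. No other alternative with both XX ECKO embryos passed. The XX value was -3.67 without E277.3 and -1.40 without E298.4, the lower ECKO embryo, each resting on a lone XX ECKO embryo. The difference between the sexes was -1.12 (SE 0.91, adjusted p = 0.99997), where edgeR called 0% of genes (681 at an unadjusted p under 0.05, and 135 called by DESeq2). Wdr55 had log2 fold changes of 0.26 (SE 0.54) in XX and -0.85 (SE 0.54) in XY.

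Marker sums also differed between the genotypes in these embryos, although their order within groups did not always follow that of Dnd1. The summed level of 12 germ cell markers was 2470 and 2258 CPM in XX ECKO embryos, and 5325 and 5704 CPM in XX Control embryos. In XY it was 5830 and 5101 CPM in ECKO, and 6170 and 7165 CPM in Control embryos. The summed level of 14 supporting cell markers was 274 and 463 CPM in XX ECKO embryos (5 and 4 of the markers at 0), and 119 and 13.02 CPM in XX Control embryos (11 and 12 at 0). In XY it was 237 and 179 CPM in ECKO, and 137 and 15.8 CPM in Control embryos, with 9 and 8 markers at 0 in ECKO and 11 and 13 in Control embryos. Embryo E298.4, the lowest in Dnd1, also had an interstitial marker sum of 297.6 CPM, against 2.84 CPM in the other XX ECKO embryo and 0.31 and 2.35 CPM in XX Controls. Of the 14 interstitial markers, 8 were at 0 in E298.4, against 10 in E277.3, 13 in E277.5 and 8 in E301.1. The part of these markers in the Dnd1 values was not tested.

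Dazl and Ddx4 overlapped between genotypes at E12.5 in both sexes. Dazl stood at 408 and 264 CPM in XX ECKO and at 379 and 149 CPM in XX Control embryos, and at 326 and 139 CPM in XY ECKO and 193 and 147 CPM in XY Control embryos. Ddx4 stood at 76.4 and 116 CPM in XX ECKO and at 117 and 50.9 CPM in XX Control embryos, and at 44.2 and 47.1 CPM in XY ECKO and 93.8 and 21.5 CPM in XY Control embryos. The 4 log2 fold changes, between -0.34 (Ddx4 in XY, SE 0.68) and 0.45 (Dazl in XY, SE 0.57), were smaller than their errors.

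Nanos3 at E12.5 stood at 236 and 96.6 CPM in XY ECKO embryos, and at 56.4 and 76.3 CPM in XY Control embryos. Both ECKO embryos were above both Controls, as in the later XY bulk libraries, but the log2 fold change of 1.32 (SE 0.55) had an adjusted p of 0.753 in edgeR's quasi-likelihood test and fell to 0.51 without embryo E281.3. In XX it stood at 77.6 and 55.8 CPM in ECKO embryos, and at 53.2 and 86.0 CPM in Control embryos, overlapping values with a log2 fold change of -0.06 (SE 0.54). Between XX and XY ECKO embryos the log2 fold change was -1.32 (SE 0.55, adjusted p = 0.759 in edgeR's quasi-likelihood test), in a comparison where 0 genes were called, 0% (890 at an unadjusted p under 0.05, and 233 called by DESeq2). Nanos1 stood at 5.09 and 8.19 CPM in XX ECKO embryos, and at 0 and 1.54 CPM in XX Control embryos, without overlap (log2 fold change 3.10, SE 2.75). In XY it stood at 2.51 and 0.77 CPM in ECKO and at 0 and 1.83 CPM in Control embryos. Nanos2 had 2 counts in all, from 1 XY ECKO cell of embryo E281.3, at 0.71 CPM of that cell.

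Cell by cell, most E12.5 germ cells carried transcripts of Dnd1, Dazl, Ddx4 and Nanos3. Taking 10 CPM as present, Dnd1 was present in 119 of the 127 cells (93.7%), Dazl in 109 (85.8%), Ddx4 in 104 (81.9%), Nanos3 in 104 (81.9%), Nanos1 in 9 (7.09%) and Nanos2 in 0. The median over all gene symbols was 3.15% of cells. Of the 127 cells, 78 had all of Dnd1, Dazl, Ddx4 and Nanos3, 33 had 3 of them, 11 had 2, 3 had 1 and 2 had none. Those last 2 cells came from ECKO embryos, 1 from E298.4 and 1 from E296.1.

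**Figure D5:**
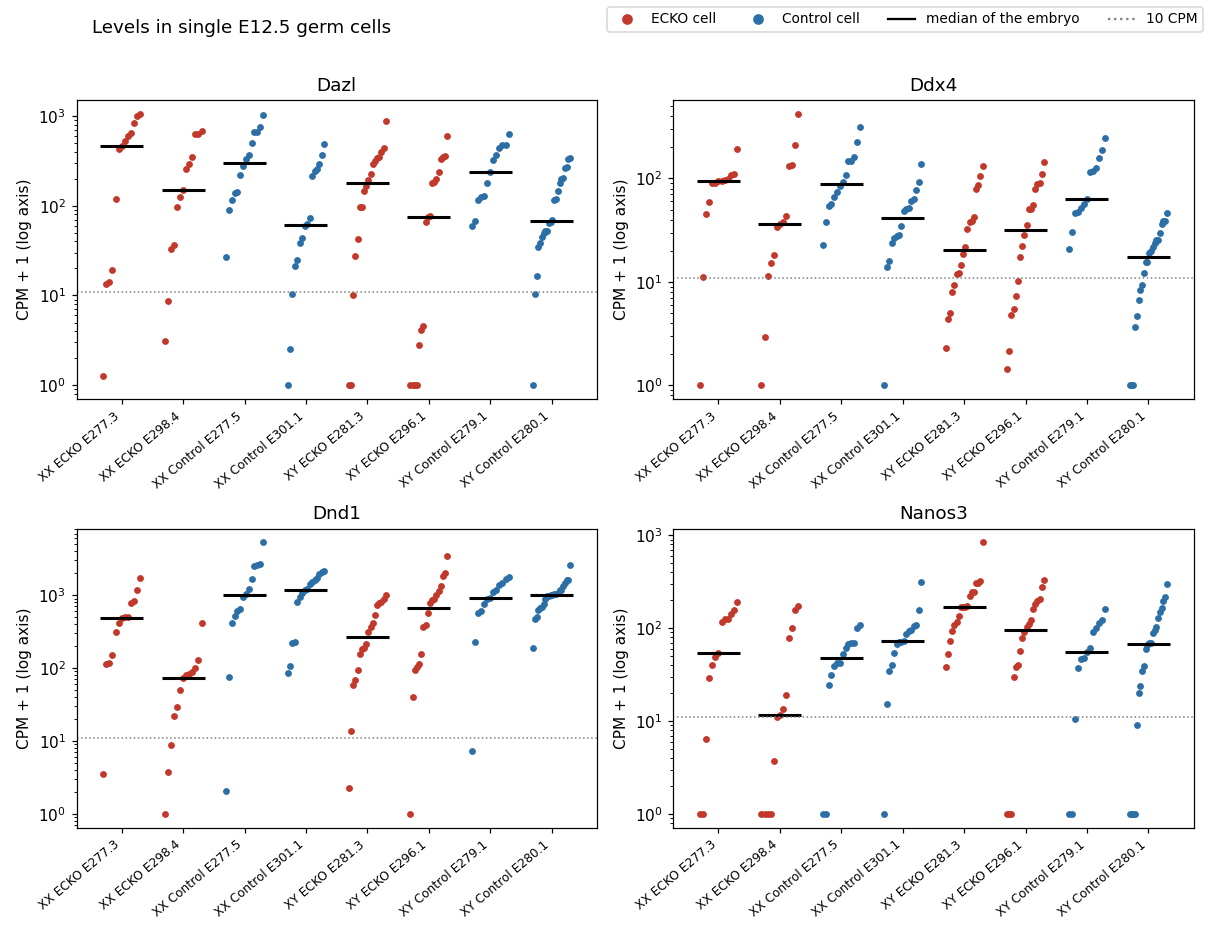
Level of 4 members in each kept E12.5 cell (CPM + 1, log axis) by embryo, ECKO in red and Control in blue, with a line at the embryo's median and a dotted line at 10 CPM. Dnd1 medians are between 71.2 and 674 CPM in the ECKO embryos and between 923 and 1184 CPM in the Control embryos.

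The levels of Dnd1 in single cells lay far above 10 CPM in most embryos, so its share of cells at that threshold is near its ceiling. The median cell had 481 and 71.2 CPM in XX ECKO embryos, and 992 and 1184 CPM in XX Control embryos. In XY it had 263 and 674 CPM in ECKO embryos, and 923 and 1008 CPM in Control embryos. Each ECKO median was below each Control median. Dnd1 was present in 12 of 13 (92.3%, exact Clopper-Pearson 95% interval 64.0 to 99.8) and 10 of 13 XX ECKO cells (76.9%, 46.2 to 95.0), and in 13 of 14 (92.9%) and 16 of 16 XX Control cells (100%, 79.4 to 100). It was present in 17 of 18 cells (94.4%, 72.7 to 99.9) of each XY ECKO embryo, and in 12 of 13 (92.3%) and 22 of 22 XY Control cells (100%, 84.6 to 100). All these intervals overlapped. At 50 CPM the shares were 92.3% and 53.8% in XX ECKO embryos, and 92.9% and 100% in XX Control embryos. In XY they were 88.9% in each ECKO embryo, and 92.3% and 100% in the Control embryos. At this threshold each ECKO share was below each Control share of its sex, but the nearest shares differed by very little. Embryo E277.3 reached 50 CPM with 12 of its 13 cells, E277.5 with 13 of 14. For XY, E281.3 and E296.1 did so with 16 of 18 each, E279.1 with 12 of 13. No intervals are given at 50 CPM, so this order is not evidence of a difference between genotypes.

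Dazl varied widely between cells of the same embryo. Its quartiles were 18.4 and 636 CPM in XX ECKO embryo E277.3, and 138 and 614 CPM in XX Control embryo E277.5. Among XX cells, the ECKO embryos had Dazl in 12 of 13 and 11 of 13, the Control embryos in 14 of 14 and 13 of 16. Among XY cells, the ECKO embryos had it in 15 of 18 and 11 of 18 (61.1%, 35.7 to 82.7), the Control embryos in 13 of 13 (100%, 75.3 to 100) and 20 of 22. Cells with no Dazl count at all numbered 2 and 4 in the XY ECKO embryos, and 0 and 1 in the XY Control embryos. For Ddx4 the XY ECKO embryos had 13 of 18 and 12 of 18 cells, the XY Control embryos 13 of 13 and 14 of 22, so that the Control embryos differed from each other by more than the genotypes did.

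Nanos3 was present in 18 of 18 (100%, 81.5 to 100) and 15 of 18 XY ECKO cells (83.3%, 58.6 to 96.4), and in 10 of 13 (76.9%, 46.2 to 95.0) and 17 of 22 XY Control cells (77.3%, 54.6 to 92.2). The median cell had 169 and 95.6 CPM in XY ECKO embryos, and 54.5 and 66.7 CPM in XY Control embryos. Among XX cells, the ECKO embryos had it in 10 of 13 and 7 of 13 (53.8%, 25.1 to 80.8), the Control embryos in 12 of 14 and 15 of 16 (93.8%, 69.8 to 99.8). For Nanos1 the XX ECKO embryos had 1 of 13 and 2 of 13 cells, the XX Control embryos 0 of 14 and 1 of 16, where 0 of 14 allows a share of up to 21.4% by the limit of 3 cells and 23.2% by the exact interval. The XX ECKO sums of Nanos1 thus came from 7 cells with any count, 3 in E277.3 and 4 in E298.4. Intervals and limits speak of counting cells in an embryo, not of other embryos.

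Across the 22 bulk libraries, Dazl and Ddx4 had the levels most alike among the members. Of 8518 genes with a mean of at least 10 CPM, Ddx4 was the nearest to Dazl (Pearson r = 0.949 of log2 levels) and Dazl the nearest to Ddx4. After removal of group means the r between them was 0.73, so that they also varied together within groups. The next nearest to Dazl were Sbno1 (0.946, and 0.63 within groups) and Tex14, a gene of germ cell intercellular bridges (0.935, and 0.54 within groups). To Ddx4 they were Inpp5f (0.944, and 0.76 within groups) and Sbno1 (0.942, and 0.58). Among the nearest to Dnd1 were Naa10 (0.930, and 0.78 within groups) and Nr2f6 (0.929, and 0.82). The nearest to Nanos3 were Fam104a (0.889, and 0.55 within groups), Alad (0.889, and 0.51) and Ddx49 (0.888, and 0.18). Within groups, the other pairs of members had r between -0.28 (Dazl and Nanos1) and 0.49 (Dnd1 and Nanos1). These values describe libraries that share stage, depth and amplification.

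None of the partners of the members passed the test with Eed deletion. Of 13 genes of the Pumilio and CCR4-NOT machinery through which NANOS proteins act, 0 changed in any of the 5 comparisons of genotypes. Of all genes, between 0.00717% and 4.90% were called in these comparisons, so 0 calls in lists this short is near that share. Their median log2 fold change was -0.27 in E11.5 XY, -0.08 in E11.5 XX and -0.60 in E13.5 XY, against 0.00, 0.03 and 0.05 over all tested genes, and 0.09 in E12.5 XX and 0.50 in E12.5 XY, against 0.13 and 0.10. Of 8 relatives of DAZL and poly(A)-binding proteins, 7 or 8 were tested in each comparison and 0 changed. Their medians were -0.12 in both E11.5 comparisons, -0.40 at E13.5, and 0.49 and 0.18 in E12.5 XX and XY.

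Other RNA-binding genes of germ cells gave a few calls in XY cells. At E11.5, 2 of 20 tested changed, where 2.13% of all genes were called: Igf2bp2, an mRNA-stabilising protein gene, rose by 1.04 on the log2 scale (SE 0.23, adjusted p = 0.0274 in edgeR's quasi-likelihood test) and Elavl2, a neuronal and germ cell RNA-binding gene, fell by 0.69 (SE 0.17, adjusted p = 0.0476). At E13.5, 4 of 21 changed, where 4.90% of all genes were called. Mael, a piRNA pathway gene, rose by 2.15 (SE 0.34), the helicase gene Ddx25 by 2.50 (SE 0.56) and Adad1, a spermatid RNA-binding gene, by 3.51 (SE 0.93), whereas the splicing and translation regulator Celf1 fell by 1.26 (SE 0.31). None of 17 changed in E11.5 XX, and none of 21 in either E12.5 comparison. The median over the list was -0.04 in both E11.5 comparisons and -0.18 at E13.5.

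The reported target mRNAs of DAZL, NANOS2 or DND1 gave calls at E13.5 alone. There, 2 of 14 rose, where 4.90% of all genes were called in either direction and 2.99% were called higher. They were Taf7l, a TFIID-related gene of male germ cells (6.79, SE 0.71, adjusted p = 0.00124 in edgeR's quasi-likelihood test), and Sycp1, a synaptonemal complex gene (1.96, SE 0.44, adjusted p = 0.0285), on the log2 scale. The median over the 14 was 0.34, against 0.05 over all tested genes. Their sum, on total counts, was lower in every ECKO library (1591 to 1754 CPM) than in every Control library (1794 to 2332 CPM). In E11.5 XX and XY and in E12.5 XX and XY, 0 of 14 changed, and the medians lay between -0.39 and 0.08. The lists were made from general knowledge of these proteins, and nothing here measures binding or translation.

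Of 12 germ cell markers, Dppa4 fell in E11.5 XY (-0.95, SE 0.19) and Dppa2 (-2.36, SE 0.43) and Prdm14 (-2.18, SE 0.51) fell in E13.5 XY, on the log2 scale, and 0 changed in the other 3 comparisons. Among markers of other cells, the endothelial gene Pecam1, which PGCs also express, fell in E11.5 XY (-0.79, SE 0.19), and the interstitial gene Pdgfra (4.65, SE 1.17) and the epithelial and supporting cell gene Krt19 (5.65, SE 1.43) rose in E13.5 XY. Pecam1 was the 1 called of 7 tested endothelial markers, whose median was 1.08, against 0.00 over all tested genes. Pdgfra and Krt19 were each the 1 called of 6 tested markers of their list. The medians were 0.20 over interstitial and -0.08 over supporting markers, against 0.05 over all tested genes. The interstitial marker sum at E13.5 was 21.6 to 78.9 CPM in ECKO and 8.92 to 45.1 CPM in Control libraries, the supporting marker sum 41.2 to 64.0 CPM in ECKO and 9.98 to 215 CPM in Control libraries, and the endothelial marker sum 30.1 to 77.4 CPM in ECKO and 150 to 220 CPM in Control libraries. The part of these cells in the Nanos2 and Nanos3 values was not tested.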

How the data were processed

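RNA-seq was measured in sorted PGCs, in 22 bulk libraries and 192 single E12.5 cells. Bisulfite libraries (8) were not analysed here. The deposited values are counts, whole numbers per gene symbol that the authors made with HISAT2, edgeR and the mm9 build, per the submitters' processing notes, with no version or role given. Bulk libraries used Ovation V2 amplification and single cells Smart-seq2, per the labels' protocols. Not given in the sources used here are the counting program, annotation and strand setting.

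Groups follow the labelled sex, stage and genotype. Single-cell columns name sex, genotype and an embryo code, and which labelled embryo each code is could not be matched. The genotype label of 1 XX cell titled ECKO reads wild type, and its title was used. Nothing says that bulk libraries came from separate animals, so p-values measure the spread between samples, which may be technical. Same-numbered ECKO and Control libraries deviated from their group means with a correlation between -0.185 and 0.163, so they were not paired.

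Each bulk table of deposited counts had its own fit, with edgeR 4.0.16 in R 4.3.3 (filterByExpr, TMM, quasi-likelihood F test, Benjamini-Hochberg over all genes tested, called at an adjusted p under 0.05). Joined tables gave differences between sexes and stages. Single-cell counts were summed per embryo over cells with at least 50000 counts and 1500 genes, and all 8 embryos were fitted together. CPM of single genes use TMM factors over all bulk libraries or over the embryo sums. CPM in cells, and all summed levels of markers or targets, use total counts without TMM factors. Floors are 3 counts over a group. Intervals and floors hold for counting error alone, since PCR copies without molecular identifiers are not independent. Standard errors are the fold change divided by the square root of F. Alternatives were DESeq2 1.42.0, RLE factors, no filter, a replicate block, other cell filters and leaving out each library or embryo. The tests were checked on simulated data. Replicates of 1 group differed by more than counting error. Likeness used log2(CPM + 1).

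The members and all gene lists were chosen with earlier results of these data known. Named beside the members were Eed, Wdr55, which overlaps Dnd1 and was added after its annotation was seen, up to 4 called genes of each list and comparison, and the 3 genes most like Dazl, Ddx4, Dnd1 and Nanos3, of which 1 is not reported here. Promoter windows came from a RefSeq table of GRCm38.p6, matched by symbol for 5 of the 6 members. Dnd1 had none.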

Additional observations from a re-analysis of the deposited data

Results flagged for a closer look

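Dazl in the E13.5 XY Control libraries had 1 library far above the others, Control 3 at 1210 CPM against 604 to 704 CPM. The fold change between genotypes without Control 3 was -0.21 on the log2 scale, against -0.55 with it. These levels depend on the TMM factor, which was 0.697 for Control 3 and between 0.878 and 0.904 for the other Controls. Dazl counts were 6277, 7191, 8914 and 2641 in Controls 1 to 4, out of total counts of 9869479, 12425911, 10576885 and 4903492. On total counts alone Control 3 was thus still the highest, but it stood less far above the others. The flagging rule was not run on total counts. Nanos1 in the E11.5 XY Control libraries had 1 library at 16.7 CPM, Control 2, against 3.39 to 5.54 CPM in the others. A total of 21 groups of 4 libraries were examined in this way for the members, and chance alone marks about 1 group in 20.

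The effect of Eed deletion on Nanos3 differed between E13.5 and E11.5 in XY germ cells by 4.40 on the log2 scale (SE 1.06, adjusted p = 0.0459 in edgeR's quasi-likelihood test), from a joint test over both stages.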

How the results depend on the processing

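Stage changes of Dazl, Ddx4, Dnd1, Nanos2 and Nanos3 in Control cells, and of Dazl, Ddx4 and Nanos2 in ECKO cells, passed the test under each of 18 alternatives. Of all fold changes of members recomputed under the alternatives, 884 kept their direction and side of the threshold, 17 lost a call, 8 gained one and 54 changed sign. Those that changed sign belonged to values that did not pass the test, and where no value below shows it, the cause was not tested. Low counts limit Nanos1 throughout, and Nanos2 and Nanos3 in E13.5 Control libraries. Depth limits all members in E11.5 XX, the shallowest set. A lone library or embryo left in a group is assumed to vary like the others.

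For genes called between ECKO and Control, DESeq2 gave 771 in E11.5 XY, 315 in E11.5 XX, 1702 in E13.5 XY, 910 in E12.5 XX and 327 in E12.5 XY, and no filter on low counts gave 457, 217, 1268, 566 and 150. A joint fit of all bulk libraries gave 23 in E11.5 XY, 9 in E11.5 XX and 2987 in E13.5 XY. With all E12.5 cells summed, 6 were called in XX. For differences, DESeq2 and no filter gave 169 and 65 for XX against XY Control at E11.5, 831 and 306 for the effect at E13.5 against E11.5, 135 and 84 for the effect in XX against XY at E12.5, and 233 and 127 for XX against XY ECKO cells at E12.5, and DESeq2 gave 1 for the effect in XX against XY at E11.5. Without the XX ECKO cells numbered 24, 1 of which may be wild type, 1 gene was called between XX and XY ECKO cells. Members called at E13.5 numbered 2 (Nanos2 and Nanos3) in DESeq2 and in the joint fit, which called 13.8% and 19.8% of all genes. At E12.5 XX they numbered 1 (Dnd1) in DESeq2 and with no filter, which called 6.52% and 3.41% of all genes.

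With the replicate number as a block, which the labels do not show to pair the libraries, the genes called numbered 151 in E11.5 XY, 37 in E11.5 XX and 68 in E13.5 XY, and 0 members were called at E13.5 (Nanos2 5.18 on the log2 scale, adjusted p = 0.105 in edgeR's quasi-likelihood test). Under the block the log2 fold changes that changed sign were Dazl at -0.41 and Ddx4 at -0.015 in E11.5 XY, Dnd1 at 0.21 and Nanos1 at 0.38 in E11.5 XX, and Nanos1 at 0.24 in E13.5 XY. Ddx4 in E11.5 XY was also -0.014 with no filter and -0.0049 in the joint fit. Nanos1 in XX against XY Control was 0.038 with DESeq2 and 0.039 with RLE factors. Nanos3 in E12.5 XX was 0.00024 with DESeq2 and 0.0001966 with RLE factors, and the difference in the Dazl effect between sexes at E12.5 was 0.054 without the cells numbered 24.

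Leaving out 1 library at a time, genes called ranged between 64 and 333 in E11.5 XY, 0 and 26 in E11.5 XX, 94 and 2141 in E13.5 XY (members 0 to 1), 0 and 1 for the E11.5 difference in effect, and 30 and 1267 for the stage difference in effect (members 0 to 2). Leaving out 1 embryo, they ranged between 46 and 241 in E12.5 XX (members 0 to 1), 3 and 53 in E12.5 XY, 0 and 37 for the E12.5 difference, and 2 and 27 for XX against XY ECKO cells, all against at most 3 with every embryo. The log2 fold changes that changed sign here ranged in E11.5 XY between -0.48 and 0.46 for Dazl, -0.23 and 0.13 for Ddx4, and -0.79 and 0.23 for Nanos1. In E11.5 XX they ranged between -0.25 and 0.20 for Dnd1 and -1.09 and 0.99 for Nanos1. Nanos1 ranged between -1.02 and 0.29 in E13.5 XY, -0.64 and 1.55 for the E11.5 difference, -1.53 and 0.69 for XX against XY Control, -0.43 and 0.86 for the stage difference, -0.69 and 0.60 for the stage change in ECKO, and -0.71 and 0.51 for that in Control cells. In E12.5 XX the ranges were -0.17 to 1.17 for Dazl, -0.27 to 0.91 for Ddx4 and -0.37 to 0.34 for Nanos3. In E12.5 XY they were -0.32 to 0.93 for Dazl, -1.03 to 1.11 for Ddx4 and -0.29 to 8.24 for Nanos1. For the E12.5 difference they were -0.64 to 0.72 for Dazl, -0.90 to 1.25 for Ddx4 and -5.11 to 9.35 for Nanos1.

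The stage change of Dnd1 in ECKO cells passed in DESeq2 (adjusted p = 0.0498) and, in edgeR's quasi-likelihood test, without E13.5 ECKO 3 (0.0384). Of 144 shares of E12.5 cells recomputed with 50 CPM, any count or equal depth, 25 moved outside their interval.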
